A study of Homo sapiens with 6 samples.

Results

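The genes described here are the WNT ligands of H1975, a human lung adenocarcinoma cell line with mutant EGFR. They are 10 genes found by symbol among the 20356 gene IDs of a table of RNA-seq values: WNT3, WNT4, WNT5A, WNT5B, WNT7A, WNT7B, WNT9A, WNT10A, WNT10B and WNT11. Messenger RNA was sequenced in 3 libraries of H1975 OR, a derivative of H1975 with resistance to the EGFR inhibitor osimertinib that was kept in 1 µM of the drug, and in 3 libraries of parental H1975 grown without it. The series describes the replicates as biological, without saying which step was repeated. H1975 OR is a single resistant derivative, which the labels describe neither as a clone nor as a pool, and the drug was present in it alone, so that resistance, drug exposure and other changes of this derivative cannot be told apart.

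WNT proteins are secreted, lipid-modified signalling proteins. The acyltransferase PORCN attaches the lipid, the carrier WLS takes the ligand to the cell surface, and Frizzled receptors bind it. With the co-receptors LRP5 and LRP6, a ligand can stabilise beta-catenin, which then acts with TCF and LEF factors on target genes; other ligands, WNT5A and WNT11 among the best known, act largely through ROR and RYK receptors without beta-catenin. In the developing lung, WNT7B is made by the epithelium and signals to itself and to the mesenchyme, and WNT5A takes part in shaping the distal airways.

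In H1975 OR the summed ligand mRNA was low and spread over several genes, whereas in parental cells it was higher and came mostly from WNT9A and WNT7B. WNT9A was 37.8-fold lower and WNT7B 14.8-fold lower in H1975 OR as a ratio of mean FPKM, and WNT10B and WNT3 were lower by smaller factors. WNT5A was the one ligand that went the other way, at 1.43 to 1.63 FPKM in H1975 OR and at or near 0 in parental cells. WNT10A overlapped between the groups, and WNT4, WNT5B, WNT7A and WNT11 stayed below 0.25 FPKM in every library. FPKM counts fragments per length of transcript and per size of library, so levels of different genes can be set side by side.

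The libraries were alike in how many genes they detected: 11410 to 11555 genes reached 1 FPKM in a library. The summed level of 8 lung adenocarcinoma and epithelial markers ran from 911 to 988 FPKM in H1975 OR and from 2487 to 2870 FPKM in parental cells. Of these markers, 4 reached a mean of 1 FPKM in H1975 OR and 6 in parental cells. The keratin genes KRT8 and KRT18 were high in both groups but lower in every H1975 OR library. KRT8 averaged 384 FPKM in H1975 OR and 508 FPKM in parental cells, and KRT18 274 and 431 FPKM. KRT7 averaged 289 FPKM in H1975 OR and 1451 FPKM in parental cells. EPCAM averaged 1.02 FPKM in H1975 OR and 211 FPKM in parental cells, and E-cadherin (CDH1) 0.0248 FPKM in H1975 OR and 68.6 FPKM in parental cells. The lung lineage factor NKX2-1 was listed at 0 in every H1975 OR library and averaged 26.7 FPKM in parental cells. The surfactant gene SFTPB was below 0.01 FPKM as a mean in both groups. Summed fibroblast markers ran from 14.4 to 18.2 FPKM in H1975 OR and from 2.35 to 2.92 FPKM in parental cells over 6 genes, nearly all of it COL1A1, with DCN listed at 0 in both groups. Summed leukocyte markers, 4 genes, ran from 24.8 to 31.0 FPKM in H1975 OR and from 3.16 to 4.19 FPKM in parental cells, nearly all of it CD14, with CD3E listed at 0. Of the endothelial markers, VWF and KDR summed to 0.107 to 0.199 FPKM in H1975 OR and 0.151 to 0.276 FPKM in parental cells. What part such markers have in the ligand values was not tested, and in bulk RNA fewer cells of a kind and less RNA per cell cannot be told apart.

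The upstream sequences of the most lowered ligand gene, of the ligand highest in H1975 OR, and of the one that rose are shown because the results turn on these genes. They are the 250 bases before RefSeq start sites on GRCh38.p14, read 5′ to 3′ on the gene's own strand, and capitals mark GC boxes (GGGCGG, either strand) and the E-box that the repressor ZEB1 binds (CACCTG, either strand). RefSeq start sites were matched for 7 of the 10 genes, and WNT7B, WNT10B and WNT11 were not among them. The windows are chr1:227947933-227948182 for WNT9A, chr17:46818693-46818942 for WNT3, chr3:55487307-55487556 for the first WNT5A start site and chr3:55481399-55481648 for its second, all on the minus strand.
WNT9A: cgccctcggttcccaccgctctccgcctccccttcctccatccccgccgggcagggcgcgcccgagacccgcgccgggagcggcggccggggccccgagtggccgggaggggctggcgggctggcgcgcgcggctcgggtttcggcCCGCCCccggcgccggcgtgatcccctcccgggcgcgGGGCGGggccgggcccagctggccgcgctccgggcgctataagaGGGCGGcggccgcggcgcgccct
WNT3: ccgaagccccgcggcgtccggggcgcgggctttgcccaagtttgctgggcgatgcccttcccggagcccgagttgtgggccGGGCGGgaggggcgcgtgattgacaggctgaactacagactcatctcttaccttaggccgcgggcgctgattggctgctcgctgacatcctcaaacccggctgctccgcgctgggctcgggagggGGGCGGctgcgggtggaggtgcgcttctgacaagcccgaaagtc
WNT5A, first start site: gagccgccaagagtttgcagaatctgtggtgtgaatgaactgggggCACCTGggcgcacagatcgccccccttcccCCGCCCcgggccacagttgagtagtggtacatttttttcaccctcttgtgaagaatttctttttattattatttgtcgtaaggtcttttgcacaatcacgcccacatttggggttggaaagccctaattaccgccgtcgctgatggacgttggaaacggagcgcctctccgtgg
WNT5A, second start site: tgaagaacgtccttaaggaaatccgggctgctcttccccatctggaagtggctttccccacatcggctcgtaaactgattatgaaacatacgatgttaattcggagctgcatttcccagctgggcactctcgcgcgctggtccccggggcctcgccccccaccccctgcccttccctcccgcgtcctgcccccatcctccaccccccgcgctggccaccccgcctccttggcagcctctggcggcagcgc

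The WNT9A window was 84.4% G and C with 44 CpG pairs, and the WNT3 window 68.8% with 26. The windows of WNT5A were 52.8% and 64.4% G and C with 14 and 18 CpG pairs, against medians of 58.0% and 11 CpG pairs over 34943 promoters of the same length. The WNT9A window held 3 GC boxes, a motif present in 42.5% of promoters. The WNT3 window held 2, and the first and second WNT5A windows held 1 and 0. The other windows belonged to genes too low to test, so they cannot show whether these features sort with the direction of change. WNT10A, whose groups overlapped, had 77.6% G and C, 24 CpG pairs and 2 GC boxes, and WNT7A, at the edge of detection, had 80.4%, 29 CpG pairs and 4 GC boxes. WNT4, low in both groups, had 86.8% G and C, 40 CpG pairs and 9 GC boxes. WNT4 mRNA was lower in every H1975 OR library than in any parental one. The windows of WNT5B, also low in both groups, had 54.8% and 50.8% G and C, with 10 and 7 CpG pairs and 0 and 2 GC boxes. The E-box occurred 1 time upstream of the first WNT5A start site and 1 time upstream of WNT7A, and was found in 17.5% of promoters. Neither the TCF and LEF core (CTTTGAT, either strand, in 2.27% of promoters) nor the AP-1 site (TGANTCA, in 6.59%) had its letters in any window of the 7 genes. These matches describe the letters and not binding.

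WNT9A, a ligand known from joint formation and, in zebrafish, from the origin of blood stem cells, lies at 1:228106357-228135599 on the minus strand (GRCh37, as for all gene positions here). It was at 0.743, 0.858 and 0.671 FPKM in H1975 OR replicates 1 to 3, and at 28.6, 29.1 and 28.2 FPKM in parental replicates 1 to 3. The groups were far apart, and the 3 libraries within each lay close together. Means were 0.757 ± 0.0942 FPKM in H1975 OR and 28.6 ± 0.441 FPKM in parental cells (SD, n = 3 each). The log2 fold change, H1975 OR minus parental on the log2(FPKM + 1) scale, was -4.08 ± 0.0652 (SE, limma adjusted p = 8.6e-14). It held rank 35 of 12107 tested genes when these were ordered from the most lowered. The mean read depth per base was 7.98 in H1975 OR and 349.6 in parental cells, so reads of the gene were still present in H1975 OR.

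WNT7B, the epithelial ligand of lung development, lies at 22:46316242-46373009. It was at 0.788, 0.590 and 0.971 FPKM in H1975 OR replicates 1 to 3, and at 11.8, 12.2 and 10.8 FPKM in the parental replicates. Every H1975 OR library was below every parental one. Means were 0.783 ± 0.190 and 11.6 ± 0.734 FPKM in H1975 OR and parental cells (SD, n = 3 each), and the log2 fold change was -2.83 ± 0.0868 (SE, limma adjusted p = 2.0e-11), at rank 128 of 12107 from the most lowered. Its close relative WNT7A, a patterning signal of limb and reproductive tract, was listed at 0 in all H1975 OR libraries, and at 0, 0 and 0.00525 FPKM in the parental ones. Thus WNT7B was the expressed member of this pair in both groups, and WNT7A was at the edge of detection.

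WNT10B, a ligand of bone formation that also restrains fat cell differentiation, lies at 12:49359123-49365546. It was at 0.650, 0.713 and 0.834 FPKM in the H1975 OR libraries, and at 2.15, 2.14 and 2.09 FPKM in the parental ones. The groups did not overlap. The ratio of means was 2.90-fold lower in H1975 OR, with a log2 fold change of -0.85 ± 0.0710 (SE, limma adjusted p = 2.2e-07); with 0.1 FPKM added in place of 1 it was -1.43. WNT10A, the related ligand of tooth and skin development at 2:219745085-219764303, was lower in level than WNT10B in parental cells and in H1975 OR. It was at 0.440, 0.488 and 0.564 FPKM in H1975 OR and at 0.550, 0.406 and 0.564 FPKM in parental cells. The groups overlapped, with means of 0.497 ± 0.0626 and 0.507 ± 0.0871 FPKM (SD, n = 3 each) in H1975 OR and parental cells.

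WNT3, a beta-catenin activating ligand at 17:44839872-44910520, is the one gene of the set at or above 1 FPKM in both groups. It was at 2.09, 1.79 and 1.72 FPKM in H1975 OR replicates 1 to 3 and at 3.04, 3.16 and 2.66 FPKM in the parental replicates. The groups did not overlap, though the gap was narrow. Means were 1.87 ± 0.194 FPKM in H1975 OR and 2.96 ± 0.261 FPKM in parental cells (SD, n = 3 each), a ratio 1.58-fold lower in H1975 OR. The log2 fold change was -0.46 ± 0.0802 (SE, limma adjusted p = 0.00017), at rank 5876 of 12107 by size in either direction, near the middle of all tested genes. WNT4, a ligand of kidney and female reproductive tract at 1:22443798-22470462, was lower still in both groups. It was at 0.0321, 0.0200 and 0.0651 FPKM in the H1975 OR libraries, and at 0.227, 0.237 and 0.243 FPKM in the parental ones. These groups did not overlap, but its mean read depth per base was 0.247 in H1975 OR and 1.12 in parental cells.

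WNT5A, the ligand most tied to signalling without beta-catenin and to cell migration, lies at 3:55499743-55523973. It was at 1.43, 1.53 and 1.63 FPKM in H1975 OR replicates 1 to 3, against 0.0187 FPKM in parental replicate 1 and a listed 0 in parental replicates 2 and 3. All H1975 OR libraries were above all parental ones. The log2 fold change was 1.33 ± 0.0685 (SE, limma adjusted p = 2.3e-09), which understates a change from so low a level, and no ratio is given against libraries at 0. With 0.1 FPKM added in place of 1 it was 3.95. Mean read depth per base was 12.1 in H1975 OR and 0.0438 in parental cells. An antisense gene, WNT5A-AS1, overlaps WNT5A on the opposite strand. The sources used here do not say whether strand was used in counting, so reads of the pair cannot be assigned to one or the other with certainty. WNT5B, its paralog at 12:1639057-1756409, was at 0, 0.144 and 0.0284 FPKM in the H1975 OR libraries and at 0.0204, 0.0231 and 0.0246 FPKM in the parental ones, with overlapping groups. It shares part of its locus with FBXL14 on the opposite strand. WNT11, a ligand of gastrulation movements and kidney branching at 11:75897369-75921780, was at 0, 0.121 and 0.0169 FPKM in H1975 OR and at 0.0177, 0 and 0.123 FPKM in parental cells, again overlapping.

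**Figure D1:**
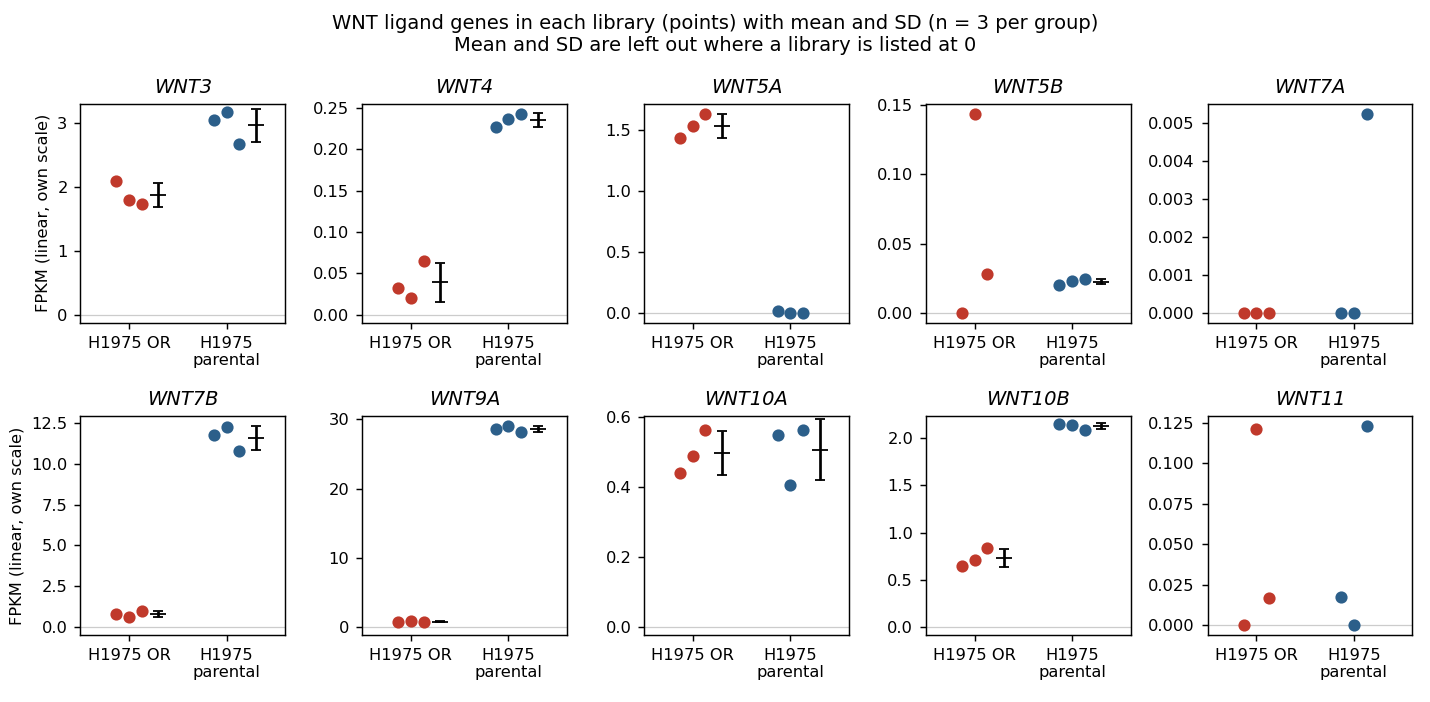
FPKM of each WNT ligand gene in the 3 H1975 OR libraries (red, left) and the 3 parental libraries (blue, right), on a linear axis of its own for each gene, with mean and SD beside the points except where a library is listed at 0. WNT9A and WNT7B stand at 28.2 to 29.1 and 10.8 to 12.2 FPKM in parental cells and below 1 FPKM in H1975 OR, and WNT5A shows the opposite arrangement.

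Of the 10 genes, 5 reached a mean of 1 FPKM in either group and entered the test, and each of them passed an adjusted p of 0.05: WNT9A, WNT7B, WNT10B and WNT3 lower, WNT5A higher. Across all tested genes, 78.0% passed, 38.1% lower and 39.9% higher in H1975 OR, so a call by itself sets a gene little apart. A fall of at least 1 on the log2 scale, which WNT9A and WNT7B had, was seen in 9.39% of tested genes, and a rise of that size, which WNT5A had, in 9.95%. Except for WNT3, these genes entered the test only through the group in which they were high, which makes a difference between the groups part of their selection. With 1 FPKM asked in both groups WNT3 alone stays, and it still passes as lower. The groups did not overlap for the 5 tested genes and for WNT4, and 79.8% of all tested genes also had no overlap.

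With no filter on low values, 18038 genes were tested, all 10 ligand genes among them. Of the 10, 5 passed as lower and 1 as higher, where 29.7% of all these genes passed as lower and 31.4% as higher, together 61.1%, and 66.1% had no overlap between the groups. WNT4 then passed as lower, by a log2 fold change of -0.25 ± 0.0189 (SE, limma adjusted p = 7.3e-05). WNT10A had a log2 fold change of -0.01 ± 0.0550 (limma adjusted p = 0.92), WNT5B one of 0.05 ± 0.0492 (adjusted p = 0.47), WNT11 one of -0.0012 ± 0.0606 (adjusted p = 0.99) and WNT7A one of -0.0025 ± 0.00689 (adjusted p = 0.80), each with its SE. At these levels the added 1 FPKM dominates the scale, so that the absence of a call says little about the ratio between the groups.

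**Figure D2:**
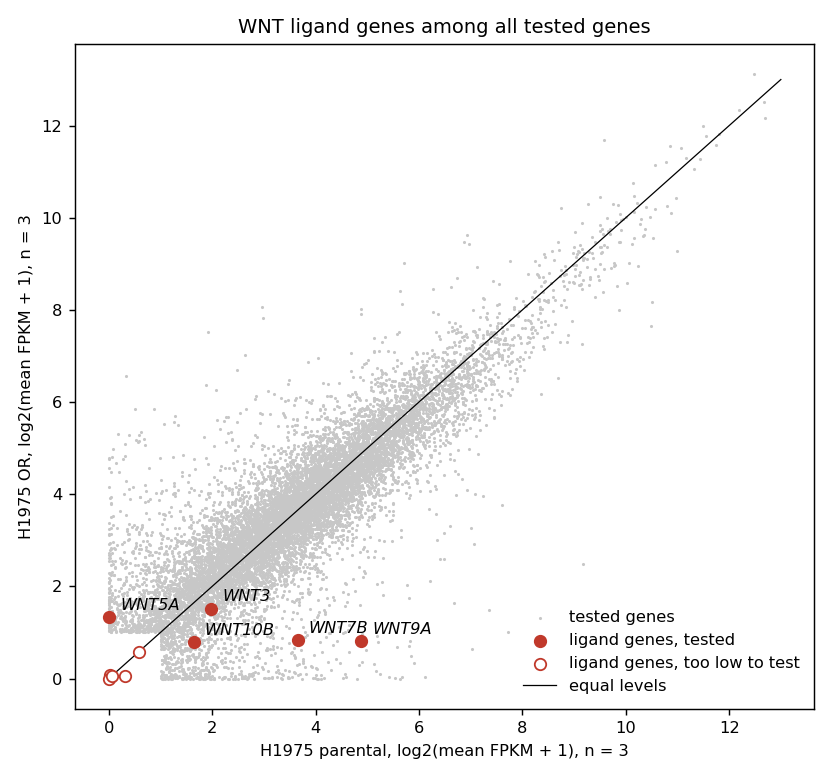
Mean expression of the 12107 tested genes (grey) in H1975 OR (vertical axis) and parental cells (horizontal axis), both as log2(mean FPKM + 1) with 3 libraries each, with the WNT ligand genes in red and the line of equal levels. WNT9A and WNT7B lie far below the line, WNT3 close to it and WNT5A at the left edge above it.

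The summed FPKM of the 10 genes was 6.17, 6.26 and 6.51 in H1975 OR replicates 1 to 3 and 46.3, 47.3 and 44.7 in the parental replicates. Without WNT9A and WNT7B the sums were 4.64, 4.81 and 4.86 FPKM in H1975 OR and 6.03, 5.97 and 5.71 FPKM in parental cells. The loss of summed ligand mRNA thus lay mainly in these 2 genes. WNT9A made up 12.0 ± 1.69% of the sum in H1975 OR and 62.0 ± 0.877% in parental cells, and WNT7B made up 12.4 ± 2.77% in H1975 OR and 25.1 ± 0.891% in parental cells (SD, n = 3 each). WNT3 became the largest contributor, with 29.6 ± 3.77% in H1975 OR and 6.41 ± 0.393% in parental cells. WNT5A held 23.2%, 24.5% and 25.1% of the sum in the H1975 OR libraries and at most 0.0402% in a parental one. A share can grow because other genes fall, as for WNT3, whose own level was lower in H1975 OR.

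**Figure D3:**
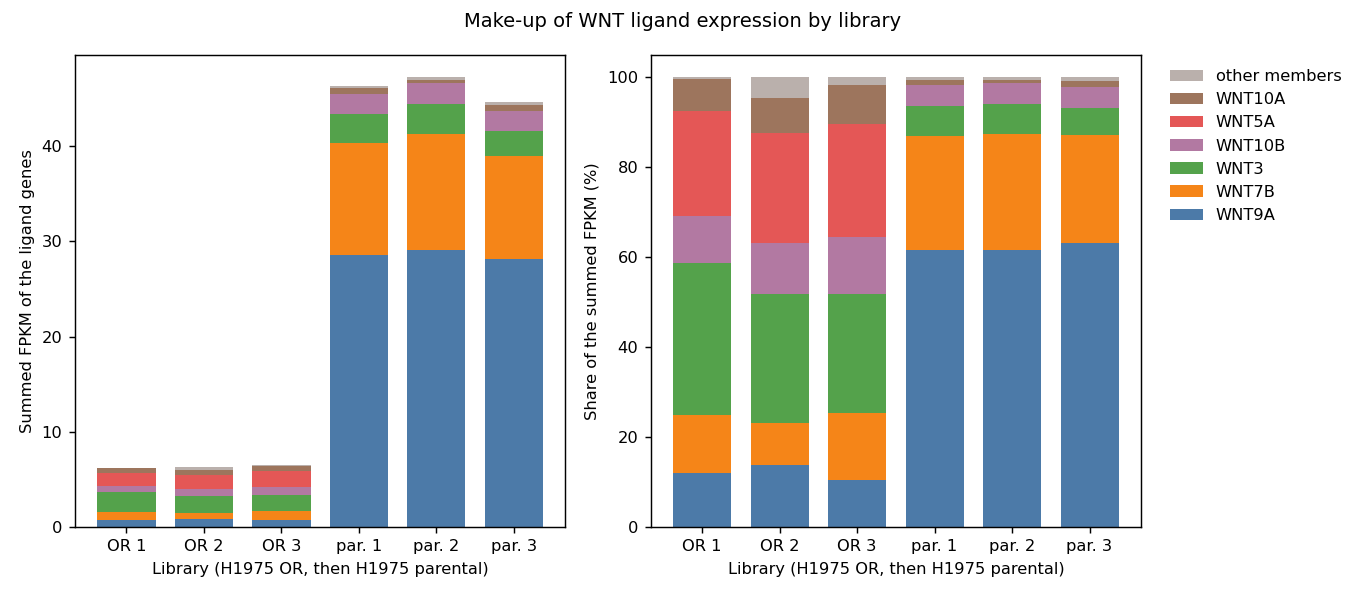
Summed FPKM of the WNT ligand genes (left) and the share of each gene in that sum in percent (right), 1 stacked bar per library, with H1975 OR libraries 1 to 3 before parental (par.) libraries 1 to 3. The sum is 6.17 to 6.51 FPKM in H1975 OR and 44.7 to 47.3 FPKM in parental cells, and WNT9A falls to 10.3% to 13.7% of it in H1975 OR, against 61.5% to 63.1% in parental cells.

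The order of the genes by level was WNT3, WNT5A, WNT7B, WNT9A, WNT10B, WNT10A, WNT5B, WNT11, WNT4 and WNT7A in H1975 OR. WNT3 and WNT5A did not overlap with each other or with the next gene. WNT7B, WNT9A and WNT10B, with means of 0.783, 0.757 and 0.733 FPKM, overlapped in order, as did WNT5B, WNT11 and WNT4. In parental cells the order was WNT9A, WNT7B, WNT3, WNT10B, WNT10A, WNT4, WNT11, WNT5B, WNT5A and WNT7A, and the overlapping neighbours were WNT11 with WNT5B and WNT5A with WNT7A. The 9 other WNT genes of the table, WNT1, WNT2, WNT2B, WNT3A, WNT6, WNT8A, WNT8B, WNT9B and WNT16, were all too low to test. Their sum was 0.273, 0.266 and 0.244 FPKM in H1975 OR and 0.260, 0.218 and 0.269 FPKM in parental cells, most of it WNT2B in H1975 OR. WNT2B itself was at 0.245, 0.232 and 0.210 FPKM in H1975 OR and at 0.120, 0.0845 and 0.107 FPKM in parental cells.

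Several ligand genes sit beside another WNT gene, and most of these neighbours were at or near 0 in both groups. WNT3A, 59.2 kb from WNT9A, averaged 0.00645 FPKM in H1975 OR and 0.0341 FPKM in parental cells. WNT9B, next to WNT3 on the opposite strand, was listed at 0 in all H1975 OR libraries and in 2 of the parental ones. WNT1, 6.85 kb from WNT10B, was listed at 0 in all 6 libraries, while ARF3, 7.79 kb from WNT10B on its other side, averaged 44.2 and 60.9 FPKM in H1975 OR and parental cells. WNT6, 6.13 kb from WNT10A, stayed below 0.03 FPKM in every library. ATXN10, 75.1 kb from WNT7B, averaged 30.9 FPKM in H1975 OR and 26.2 FPKM in parental cells, and was higher in every H1975 OR library.

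By closeness over the 6 libraries, measured as the Euclidean distance of log2(FPKM + 1), the tested genes nearest to WNT9A were PHLDA3 (distance 0.341), PAK6 (0.469) and F2RL1 (0.573). PHLDA3 averaged 0.968 ± 0.0343 FPKM in H1975 OR and 29.0 ± 1.54 FPKM in parental cells (SD, n = 3 each). The genes nearest to WNT3, the ligand with the highest mean in H1975 OR, were B9D2 (distance 0.0824), TRAF5 (0.207) and PPARGC1B (0.208). B9D2 averaged 1.92 ± 0.155 FPKM in H1975 OR and 2.89 ± 0.256 FPKM in parental cells (SD, n = 3 each).

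The rest of the pathway moved in both directions. Of 78 tested genes in 10 lists of other pathway genes, counted once each, 32 were higher and 31 lower in H1975 OR, together 80.8% against 78.0% of all tested genes. Their median log2 fold change was -0.01, against 0.01 over all tested genes. By at least 1 on the log2 scale, 6 rose and 8 fell, where 9.95% of all tested genes rose and 9.39% fell by that size. Within single lists with tested genes, the share that passed ran from 68.8% to 100%, against the same 78.0%. The lists hold 123 genes, of which 121 were found in the table. None of the 9 other WNT genes reached the test.

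Among genes of ligand processing and secretion, 2 rose and 3 fell of 5 tested. WLS, the carrier of WNT proteins, was at 21.2, 20.5 and 19.5 FPKM in H1975 OR and at 9.83, 10.4 and 10.4 FPKM in parental cells (log2 fold change 0.93 ± 0.0606 SE, limma adjusted p = 2.1e-08). Carrier mRNA was thus higher in every H1975 OR library while summed ligand mRNA was lower. PORCN, the acyltransferase, was at 12.3, 15.9 and 17.1 FPKM in H1975 OR and at 11.3, 10.9 and 13.7 FPKM in parental cells, and its groups overlapped although it passed (0.31 ± 0.125 SE, limma adjusted p = 0.049). That call was lost on leaving out H1975 OR replicate 2 or 3 or parental replicate 1 or 2, with limma adjusted p of 0.137 to 0.140. The largest falls were those of TINAGL1, a matrix protein, at 5.16 ± 0.713 FPKM in H1975 OR and 38.6 ± 2.66 FPKM in parental cells, and GPC4, a cell surface proteoglycan, at 0.0128 ± 0.00679 and 1.26 ± 0.170 FPKM in H1975 OR and parental cells (SD, n = 3 each).

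Of the 10 Frizzled receptor genes, 8 were tested, with 4 higher and 3 lower in H1975 OR and a median log2 fold change of 0.09. FZD7 alone among them moved by 1 log2 unit or more. It was at 1.49, 1.87 and 1.51 FPKM in H1975 OR and at 5.45, 5.86 and 5.42 FPKM in parental cells (-1.33 ± 0.0776 SE, limma adjusted p = 7.7e-09). The most expressed receptor genes were FZD2, at 17.9 ± 1.29 FPKM in H1975 OR and 9.96 ± 0.299 FPKM in parental cells, and FZD6, at 13.5 ± 0.828 FPKM in H1975 OR and 17.2 ± 0.252 FPKM in parental cells (SD, n = 3 each). Both passed, FZD2 as higher and FZD6 as lower, so that their order by level was reversed between the groups.

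Among 6 tested co-receptor genes 2 rose and 3 fell. LRP6, a beta-catenin branch co-receptor, was at 12.1, 11.2 and 11.9 FPKM in H1975 OR and at 4.82, 5.45 and 4.88 FPKM in parental cells (1.07 ± 0.0666 SE, limma adjusted p = 1.4e-08), and LRP5 rose as well, to 31.0 ± 0.754 FPKM in H1975 OR, against 18.2 ± 0.340 FPKM in parental cells (SD, n = 3 each). The 3 that fell, PTK7, ROR1 and RYK, are best known from the branch without beta-catenin. Their log2 fold changes were -1.11, -0.39 and -0.28. Those of ROR1 and RYK were smaller in size than the median absolute change of all tested genes, 0.449. PTK7 was at 3.71 ± 0.506 FPKM in H1975 OR and 9.14 ± 0.293 FPKM in parental cells, and ROR1, a receptor of WNT5A, at 3.09 ± 0.0879 FPKM in H1975 OR and 4.39 ± 0.581 FPKM in parental cells (SD, n = 3 each). RYK was at 24.4 ± 1.48 FPKM in H1975 OR and 29.8 ± 1.05 FPKM in parental cells (SD, n = 3 each). RECK, which serves WNT7 ligands together with ADGRA2, was at 3.50 FPKM in both groups. ADGRA2, too low to test, was at 0.628, 0.857 and 0.837 FPKM in H1975 OR. In parental cells ADGRA2 was lower, at 0.353, 0.189 and 0.230 FPKM.

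Among secreted antagonists and their receptors 2 rose and 1 fell of 3 tested. KREMEN2, a DKK receptor, fell to 0.709 ± 0.0586 FPKM in H1975 OR, against 3.18 ± 0.307 FPKM in parental cells (SD, n = 3 each). DKK1, a secreted antagonist, was at 30.0, 33.6 and 27.3 FPKM in H1975 OR and at 26.3, 27.8 and 23.9 FPKM in parental cells, with overlapping groups, and passed as higher (0.21 ± 0.0818 SE, limma adjusted p = 0.032). That call was lost without H1975 OR replicate 1 or 2 or parental replicate 1 or 3, with limma adjusted p of 0.054 to 0.144. In the R-spondin axis, which sets how many Frizzled receptors stay on the surface, LGR4 rose to 17.3 ± 0.655 FPKM in H1975 OR, against 9.84 ± 0.561 FPKM in parental cells, and ZNRF3 fell to 3.27 ± 0.223 FPKM in H1975 OR, against 3.82 ± 0.221 FPKM in parental cells (SD, n = 3 each). The ZNRF3 call was lost without H1975 OR replicate 1 or 2 or parental replicate 1 or 2, with limma adjusted p of 0.057 to 0.133.

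Of 18 tested genes of the cytoplasmic relay and destruction complex, 7 rose and 6 fell. AXIN2, a scaffold that is itself a target of beta-catenin, was at 1.66, 1.54 and 1.90 FPKM in H1975 OR and at 0.0444, 0.0245 and 0.0533 FPKM in parental cells (1.37 ± 0.0736 SE, limma adjusted p = 3.4e-09). CTNNB1, the beta-catenin gene, fell to 80.2 ± 2.40 FPKM in H1975 OR, against 99.3 ± 3.47 FPKM in parental cells (SD, n = 3 each). Of 12 tested TCF factors and cofactors, 6 rose and 3 fell. The corepressor gene TLE4 was at 10.4 ± 1.09 FPKM in H1975 OR and 0.0376 ± 0.0138 FPKM in parental cells, and the factor TCF7 at 1.35 ± 0.117 and 5.10 ± 0.535 FPKM in H1975 OR and parental cells (SD, n = 3 each).

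Genes commonly read as beta-catenin targets went both ways: of 12 tested, 6 rose and 6 fell, with a median log2 fold change of 0.02. The rise of DKK1 and the fall of ZNRF3 are among these, and each call was lost without some single libraries, as given above. Beside AXIN2, BMP4 was higher, at 7.44, 8.08 and 7.98 FPKM in H1975 OR and 0.0247, 0.0419 and 0.0150 FPKM in parental cells, and so was MYC, at 303, 409 and 334 FPKM in H1975 OR and 70.2, 79.8 and 79.4 FPKM in parental cells. EPHB3, a receptor of ephrins, was lower, at 0.0738 ± 0.0269 FPKM in H1975 OR and 2.64 ± 0.191 FPKM in parental cells (SD, n = 3 each), and TCF7 is also on this list. Several of these genes respond to other pathways too. Among 16 tested genes of the planar polarity and calcium branch 4 rose and 7 fell. CELSR1, an atypical cadherin, fell to 3.44 ± 0.359 FPKM in H1975 OR, against 9.51 ± 0.0849 FPKM in parental cells, and PRICKLE2 rose to 4.38 ± 0.549 FPKM in H1975 OR, against 1.66 ± 0.289 FPKM in parental cells (SD, n = 3 each).

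**Figure D4:**
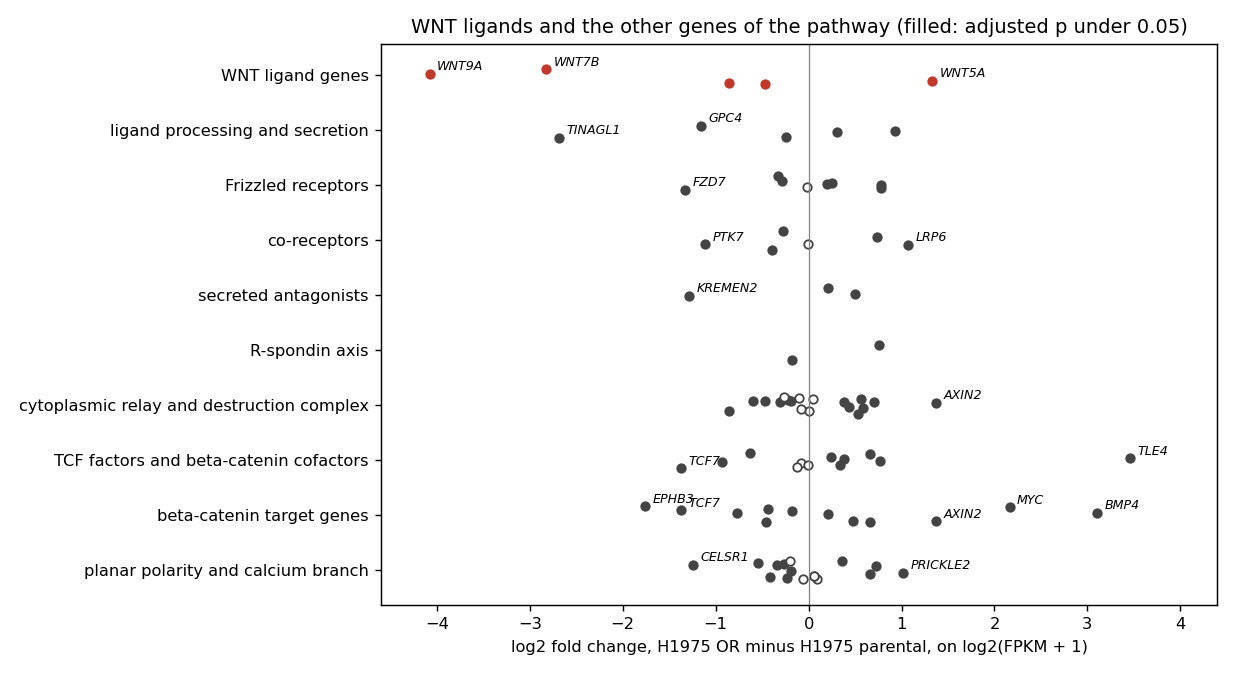
log2 fold change, H1975 OR minus parental on the log2(FPKM + 1) scale, of the tested WNT ligand genes (red) and of the tested genes in each list of other pathway genes (grey), filled where the adjusted p was under 0.05, with points spread vertically at random and names at changes of at least 1. WNT9A at -4.08 and WNT7B at -2.83 lie left of every gene of the other lists, and TLE4 at 3.46 lies farthest to the right.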

How the data were processed

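RNA-seq values of 3 H1975 OR and 3 parental H1975 libraries were used, grouped by the sample titles. The authors deposited FPKM in a series table, and per the file headers the deposited file of each library also gives coverage (signal, mean read depth per base) and TPM. Reads were mapped to GRCh37, as the submitters' processing notes record; the aligner, the quantification tool, its annotation and the strand setting are not stated in the labels or headers. The table and library files differed by more than 0.00001 FPKM in 1 to 4 genes per library. No read counts were used, so depth in reads is unknown and intervals for counting error are not given.

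The test covered 12107 genes, those averaging 1 FPKM or more in H1975 OR or in parental cells. It was limma 3.58.1 (R 4.3.3), fitted to log2(FPKM + 1) with a single group term and with trended, robust variance moderation. P-values were two-sided and adjusted by the Benjamini-Hochberg method over all 12107 genes, with 0.05 as threshold. Fold changes on this scale understate changes of low genes. Adjusted p-values measure spread among libraries of 1 parental and 1 resistant line. The procedure was tested on simulated data before use. Changes were planted there in a small share of genes, at parental levels above those of WNT3, WNT10B and WNT5A. The simulation therefore does not show recovery at the levels of these genes. The members and pathway lists were chosen with earlier results of these data known. Of 144 listed genes, 141 were found, 1 of them by gene ID. Pathway genes were named where they passed and moved by 1 log2 unit or more, up to 3 per direction and list by adjusted p; WLS, PORCN, FZD2, FZD6, LRP5, ROR1, RYK, RECK, ADGRA2, DKK1, LGR4, ZNRF3 and CTNNB1, and the neighbouring genes, were chosen after their values were seen. Upstream sequences are from RefSeq (GRCh38.p14), and gene positions are those of the deposited files, 1-based. Tables were handled in Python 3.11.15 with pandas 2.3.3. Other pseudocounts, filters, units, scalings, moderation, a replicate block and leaving out each library were tried.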

Additional observations from a re-analysis of the deposited data

Results flagged for a closer look

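WNT5A-AS1, the antisense gene that overlaps WNT5A, is listed in the library files but not in the series table used for the comparisons, and it drew attention because it gave signal in each H1975 OR library and none in parental cells. It was at 0.490, 0.520 and 0.818 FPKM in H1975 OR replicates 1 to 3, a mean of 0.609 FPKM, and listed at 0 in all parental libraries. Since strand use is not given in the sources used here, reads of WNT5A and WNT5A-AS1 cannot be told apart, and no cause was tested.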

How the results depend on the processing

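Of 452 refits of 31 named genes, 430 kept the direction and the call, those of the 5 tested ligand genes among them. The other 22 were refits of PORCN, DKK1 and ZNRF3, which lost their calls in some settings, and of RECK, not called in any, which ran from -0.0469 to 0.0332 over leaving out each library and stood at 0.0289 with deposited TPM. Beside the libraries named with the results, PORCN lost its call with no filter (limma adjusted p = 0.105), with 1 FPKM asked in both groups (0.052) and with median-of-ratios scaling (0.067), DKK1 with no filter (0.092) and ZNRF3 with deposited TPM (0.068) and the replicate block (0.062). With 0.1 FPKM added in place of 1, the log2 fold changes of low genes grew by more than 1.5 times: GPC4 to -3.59, EPHB3 to -3.99, KREMEN2 to -2.02, AXIN2 to 3.68, BMP4 to 5.97 and TLE4 to 6.26. On the log2 scale WNT9A ran from -5.07 to -4.04, WNT7B from -3.75 to -2.75 and WNT10B from -1.43 to -0.82. WNT3 ran from -0.64 to -0.43 and WNT5A from 1.30 to 3.95. For each of these ligand genes the value farthest from 0 came from the pseudocount of 0.1. The count of ligand genes called changed with the filter, by construction. With a mean of 1 FPKM asked over all libraries, WNT5A left the test, 0 ligand genes were higher and 4 lower. With 1 FPKM asked in both groups, WNT3 alone was tested, so 1 ligand gene was called, 1 lower and 0 higher. Without a filter 6 were called. Leaving out each library gave 5 called ligand genes each time and 57 to 62 called pathway genes, against 63. Same-numbered libraries had correlations of -0.135, 0.0761 and 0.0990 in their deviations from the group means, so the numbers were not taken to pair the cultures; with the replicate block 5 ligand genes, 63 pathway genes and 9422 of all genes were called, against 9448 without it. Depth in reads is unknown, and genes under 0.25 FPKM rest on little coverage.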
